A study of Mus musculus with 6 samples.

Results

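Nuclear transport receptors are the soluble carriers that take proteins and RNA through the nuclear pore. The 10 genes described here are the importin alphas Kpna1, Kpna2, Kpna3, Kpna4 and Kpna6, the importin betas Kpnb1, Tnpo1 and Ipo5, and the exportins Cse1l and Xpo1, out of 24346 gene symbols in the deposited tables. They were found by symbol, and all 10 were present and expressed above the filter used for testing. The genes were selected on the difference between the lines measured in these same samples, with Kpna2 in the lead, so the differences of the 10 genes are given as a description and without p-values.

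RNA sequencing compared 3 RNA samples of parental CT26.mMR1 cells with 3 of M8 cells, and all 6 sample titles carry the line label cl9. CT26 is a mouse colorectal tumor cell line, and CT26.mMR1 cells carry mouse MR1, the molecule that presents antigens to MAIT cells, by retroviral transduction. M8 is a single clone, obtained by limiting dilution after treatment of CT26.mMR1 cells with the mutagen ENU at 0.3 mg/mL. It was picked from a screen for mutants that activated a MAIT reporter line more strongly, and then for its surface MR1. Both lines overexpress MR1, and the samples of M8 are repeats of 1 clone. What the mutagen did and what is particular to this clone cannot be told apart, and p-values measure only the spread between RNA samples of a line.

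Values are FPKM, fragments per kilobase of exon scaled to the mapped fragments of a library, so levels can be set side by side between genes per length. The values do not state the depth, but the steps of weakly expressed genes gave the depth of each library relative to parental replicate 1. It was 0.949 and 1.07 for the other parental replicates and between 0.772 and 0.875 for M8. Of the markers of colon epithelium, the labelled tissue, Epcam, Cdh1 and Cdx2 were listed at 0 in every library. Cdx1, Vil1 and Krt8 did not exceed 0.12 FPKM, while Krt18 and Krt20 were expressed. Krt20 was lower in M8 (log2 fold change -0.50, adjusted p = 0.00438 by limma), as was the mesenchymal marker Pdgfra (-0.43, adjusted p = 0.00903), and Pdgfrb was higher (0.25, adjusted p = 0.00787). Mesenchymal markers other than Thy1, which was listed at 0, included abundant ones, with Vim between 1751 and 2137 FPKM, and the summed endothelial markers stayed below 0.09 FPKM. Of the 6 leukocyte markers only Cd14 exceeded 0.1 FPKM, at 15.4 to 16.4 in parental cells and 17.3 to 18.7 in M8, and it was called higher (log2 fold change 0.15, adjusted p = 0.0489 by limma). The part of these markers in the results on the transport genes was not tested.

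In the classical import cycle, an importin alpha binds the nuclear localization signal of a cargo and importin beta 1, the product of Kpnb1, carries the complex through the pore. Ran bound to GTP releases the cargo in the nucleus, and the exportin Cse1l, also called CAS, returns importin alpha to the cytoplasm. Tnpo1 and Ipo5 bind their own cargoes without an importin alpha, and Xpo1, also called CRM1, exports proteins with a leucine-rich export signal. In mitosis importins also hold spindle assembly factors such as TPX2 inactive away from the chromosomes.

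Among the importin alphas, only Kpna2 and Kpna4 were above the parental values in all 3 M8 replicates. Kpna2, the importin alpha typical of proliferating and undifferentiated cells, was at 126, 122 and 124 FPKM in parental replicates 1 to 3 and at 176, 176 and 174 FPKM in M8. The lowest M8 value was far above the highest parental one, and the replicates of a line differed by a few percent at most. The means were 124 ± 2.06 and 176 ± 1.11 FPKM (SD, n = 3 each), an increase of 41.2% and a log2 fold change of 0.49 (standard error 0.035). Kpna4 was at 36.2, 35.2 and 36.2 FPKM in parental cells and at 42.2, 40.8 and 43.0 FPKM in M8. The means of Kpna4 were 35.9 ± 0.573 and 42.0 ± 1.13 FPKM (SD, n = 3 each), which differ by a log2 fold change of 0.22 (standard error 0.041), and its groups did not overlap either.

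The remaining importin alphas did not share this difference. Kpna3 was at 20.4, 21.8 and 18.7 FPKM in parental cells and at 19.4, 19.9 and 20.6 FPKM in M8, with a log2 fold change of -0.023 (standard error 0.060). Kpna6 was at 20.3, 19.6 and 19.3 FPKM in parental cells and at 20.0, 19.2 and 19.9 FPKM in M8, with a log2 fold change of -0.0017 (standard error 0.046). For both genes the values of the lines overlapped. Kpna1, the least expressed of the 10 genes, was at 13.4, 13.4 and 13.4 FPKM in parental cells and at 11.9, 11.6 and 13.0 FPKM in M8. Its M8 values were all below the parental ones (log2 fold change -0.13, standard error 0.055), and M8 replicate 3 came nearest to the parental level.

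**Figure D1:**
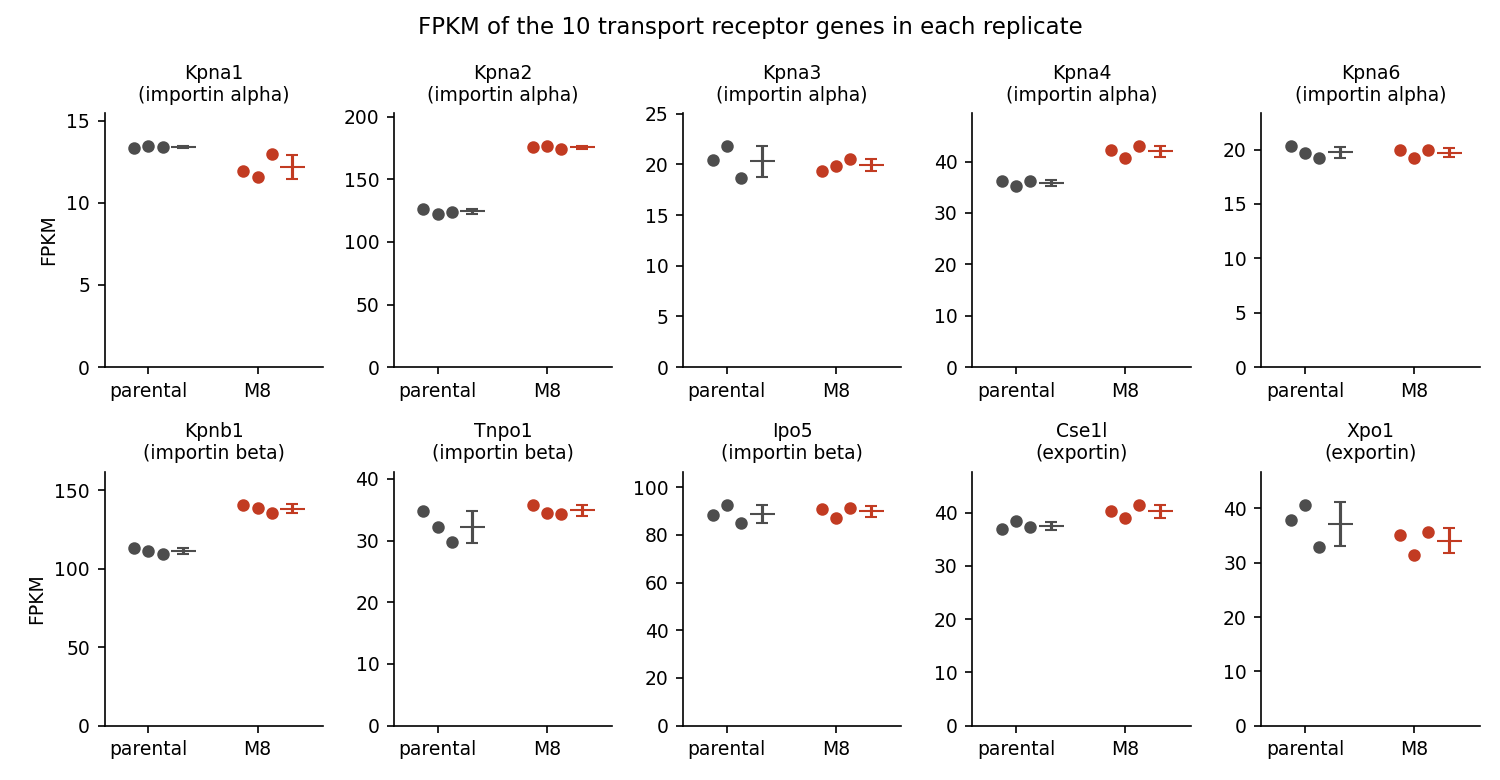
FPKM of each of the 10 genes (y axis, from 0, with its own scale per gene) in the 3 parental (grey) and 3 M8 (red) replicates, with the mean and SD beside the points. Kpna2, Kpna4, Kpnb1 and Cse1l lie higher in all M8 replicates, Kpna1 lies lower in all of them, and the lines overlap in the other 5 genes.

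Among the importin betas, Kpnb1 stood out. It was at 113, 111 and 109 FPKM in parental cells and at 141, 139 and 135 FPKM in M8. The means were 111 ± 1.89 and 138 ± 2.73 FPKM (SD, n = 3 each), an increase of 24.5% (log2 fold change 0.31, standard error 0.037), and the groups did not overlap. Tnpo1, transportin 1, carries RNA-binding proteins into the nucleus. It was at 34.8, 32.1 and 29.7 FPKM in parental cells and at 35.8, 34.4 and 34.4 FPKM in M8 (log2 fold change 0.11, standard error 0.058). Parental replicate 1 of Tnpo1 lay within the M8 range. Ipo5, an importer of ribosomal proteins among other cargoes, was at 88.4, 92.7 and 85.1 FPKM in parental cells and at 90.9, 87.3 and 91.5 FPKM in M8 (log2 fold change 0.019, standard error 0.044), with overlapping groups.

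The exportins had small differences on opposite sides of 0, and neither was called. Cse1l, which recycles importin alpha, was at 36.9, 38.4 and 37.2 FPKM in parental cells and at 40.3, 39.0 and 41.5 FPKM in M8. Its groups did not overlap, but the gap between parental replicate 2 and M8 replicate 2 was under 1 FPKM, and the log2 fold change was 0.10 (standard error 0.043). Xpo1 was at 37.9, 40.7 and 32.8 FPKM in parental cells and at 35.1, 31.4 and 35.7 FPKM in M8 (log2 fold change -0.12, standard error 0.078). It was the most variable of the 10 genes, with a coefficient of variation of 10.7% between parental replicates, and its groups overlapped.

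In limma's test over the 10597 genes whose mean reached 1 FPKM, at a Benjamini-Hochberg adjusted p below 0.1, 3 of the 10 genes were called higher in M8 and 0 lower. Those 3 were Kpna2, Kpna4 and Kpnb1. Of all genes tested, 21.2% were called higher and 16.5% lower, and since the genes were chosen on this contrast nothing is read from their count. The replicates of the lines did not overlap in 5 of the 10 genes and in 45.2% of all genes tested. The median log2 fold change was -0.0017 for the 5 importin alphas and 0.10 for the 5 importin betas and exportins, against 0.0069 for all genes tested. Taken apart, the 3 importin betas had a median of 0.11 and the 2 exportins one of -0.0089. Kpna2 had the largest value of the 10 genes and Kpna1 the lowest, so the spread among the importin alphas spanned that of the other receptors. In bulk RNA, a larger share of cells that express a gene and more RNA per cell cannot be told apart.

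The order of levels was led in both lines by Kpna2, Kpnb1 and Ipo5, in that order and with no overlap between neighbours. In parental cells Cse1l, Xpo1 and Kpna4 followed, and neighbours among these overlapped. In M8 Kpna4 had moved ahead of Cse1l and Tnpo1 ahead of Xpo1 in the means, but the values of each of these pairs overlapped. Kpna4 had also moved ahead of Xpo1, and in M8 their values did not overlap. Kpna3 and Kpna6 overlapped in both lines, and Kpna1 was lowest in both.

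Kpna2 made up more of the importin alpha RNA in M8. Its share of the summed FPKM of the 5 importin alphas was 58.3%, 57.6% and 58.6% in parental replicates 1 to 3 and 65.3%, 65.9% and 64.4% in M8. The mean share was 58.2% ± 0.550 and 65.2% ± 0.756 (SD, n = 3 each). The shares of Kpna4 were 16.8% ± 0.267 and 15.6% ± 0.335 (SD, n = 3 each), so this gene, although higher in M8, took a slightly smaller part. The sum of the 5 importin alphas was 214 ± 2.68 FPKM in the parental line against 269 ± 1.5 FPKM in M8 (SD, n = 3 each). The 4 importin alphas other than Kpna2 summed to 89.3 ± 1.52 and 93.8 ± 2.55 FPKM (SD, n = 3 each).

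The ratio of importin alpha to Kpnb1 RNA did not separate the lines, while that of Kpna2 to Kpnb1 did. The summed importin alphas were 1.92, 1.91 and 1.94 times Kpnb1 in parental replicates and 1.91, 1.93 and 2.0 times Kpnb1 in M8, and the lines overlapped. Kpna2 alone was 1.12 ± 0.018 times Kpnb1 in parental cells and 1.27 ± 0.019 times in M8 (SD, n = 3 each). Relative to its exporter Cse1l, Kpna2 was at 3.32 ± 0.120 in parental cells and at 4.36 ± 0.161 in M8 (SD, n = 3 each). These ratios rest on the same values as the differences above.

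**Figure D2:**
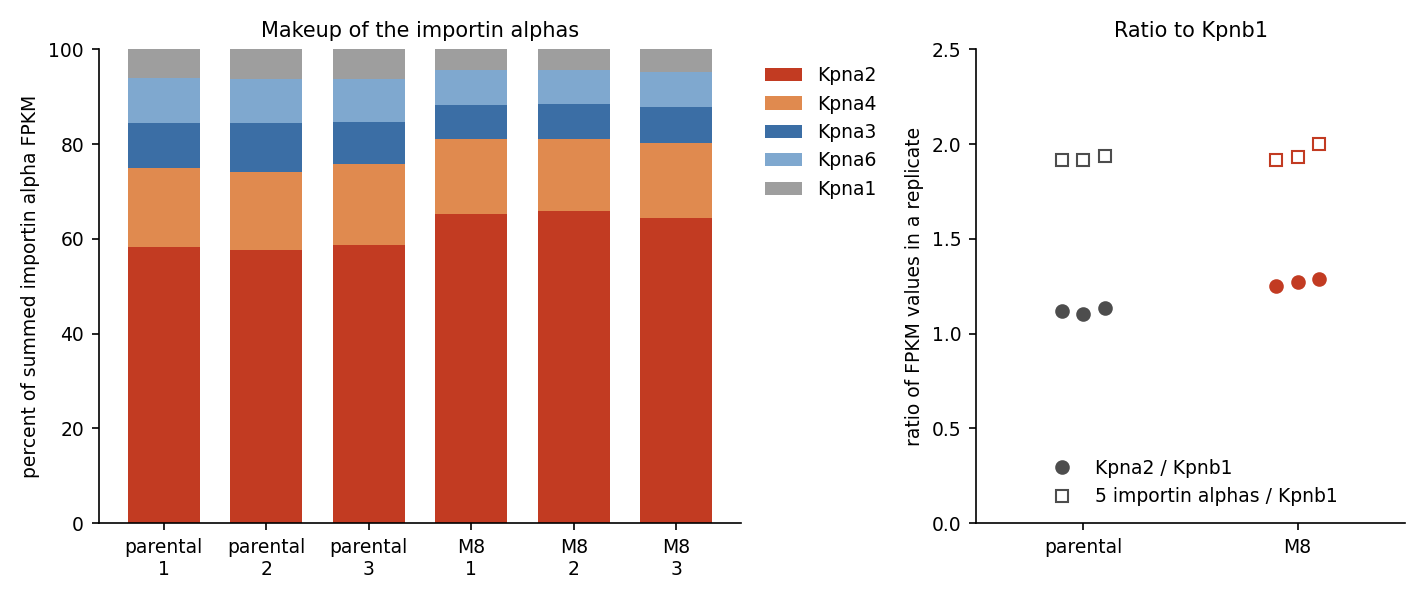
Left, share of each importin alpha in the summed FPKM of the 5 importin alphas (y axis, percent) in each replicate. Right, ratio of FPKM values within a replicate (y axis) for Kpna2 over Kpnb1 (filled) and for the 5 importin alphas over Kpnb1 (open): Kpna2 is 58.2% of the importin alphas in parental cells and 65.2% in M8 on average, and the open squares of the lines overlap.

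The importin alphas fall into subfamilies by sequence. From the coding sequences in GENCODE M21, Kpna3 and Kpna4 were identical in 85.8% of 521 aligned residues, and Kpna1 and Kpna6 in 81.6% of 533. Kpna2 shared between 47.5% and 51.7% with each of the other 4. Kpna4 was at 1.78 ± 0.160 times Kpna3 in parental cells and at 2.11 ± 0.064 times in M8 (SD, n = 3 each), with all M8 ratios above the parental ones.

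Of the 10 genes, Kpna2 shared the most sequence with other genes. Of the 1954 windows of read length in its main transcript, 1722 (88.1%) also occur exactly in transcripts of other genes in GENCODE M21. Gm10184 holds all 1722 of them, and Gm10259 holds 1254. None of the 5 such copies is in the deposited tables. How reads that fit several places were counted is not given in the sources used here, so the level of Kpna2, its rank and its share of the importin alphas depend on that step, and the part of the copies in its difference was not tested. The other importin alphas, Kpnb1, Cse1l and Xpo1 had no such window in another gene. Tnpo1 had 6.03%, in Gm6493, and Ipo5 had 0.272%, in Gm14857.

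In the mouse genome GRCm38 (mm10), by the RefSeq annotation, Kpna2 lies on chromosome 11 from 106988629 to 106999525, as do Kpnb1 (97159710 to 97187892) and Xpo1 (23255909 to 23297597). Kpna3 (61365186 to 61439947) and Ipo5 (120896840 to 120948046) are on chromosome 14. Kpna1 is on chromosome 16 (35983288 to 36037136), Kpna4 on chromosome 3 (69072221 to 69127092) and Kpna6 on chromosome 4 (129643979 to 129672767). Cse1l is on chromosome 2 (166906041 to 166946389) and Tnpo1 on chromosome 13 (98839019 to 98926384). Noncoding genes overlap Kpna1 by 42 bases, Kpna2 by 57, Kpna4 by 343 and Cse1l by 1254. A pseudogene and the protein-coding gene Gm52051 overlap Tnpo1.

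The promoters of the 3 genes called higher are shown because their RNA differed in the same direction. Each is the 250 bases before the start of the gene, read 5′ to 3′ on the gene's own strand, which is the minus strand for all 3, from RefSeq on GRCm38.p6. Capitals mark CCAAT, the core of the box that the factor NF-Y binds, and TTTGAA, the core of the cell cycle genes homology region known from promoters of genes expressed in G2 and mitosis, each on either strand (ATTGG and TTCAAA on the other).
Kpna2, chr11:106999526-106999775: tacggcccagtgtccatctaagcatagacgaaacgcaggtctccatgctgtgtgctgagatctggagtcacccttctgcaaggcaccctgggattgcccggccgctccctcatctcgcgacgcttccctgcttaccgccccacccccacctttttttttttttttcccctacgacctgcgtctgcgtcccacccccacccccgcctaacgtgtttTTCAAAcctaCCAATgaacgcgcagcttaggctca
Kpna4, chr3:69127093-69127342: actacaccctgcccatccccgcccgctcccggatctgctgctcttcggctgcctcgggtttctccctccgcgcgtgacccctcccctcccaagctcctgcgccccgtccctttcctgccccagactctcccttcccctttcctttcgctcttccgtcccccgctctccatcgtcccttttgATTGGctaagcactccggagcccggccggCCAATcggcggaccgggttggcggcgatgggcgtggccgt
Kpnb1, chr11:97187893-97188142: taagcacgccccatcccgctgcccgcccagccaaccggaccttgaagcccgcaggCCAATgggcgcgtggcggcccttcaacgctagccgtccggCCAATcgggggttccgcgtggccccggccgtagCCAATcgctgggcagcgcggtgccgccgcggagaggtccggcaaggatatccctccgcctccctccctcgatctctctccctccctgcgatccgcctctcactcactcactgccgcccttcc

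The Kpna2 promoter held TTCAAA from 35 to 30 bases before the start and CCAAT from 25 to 21 bases before it. The Kpnb1 promoter held CCAAT 3 times, from 195, 155 and 122 bases before the start, and the Kpna4 promoter held it once on each strand. Neither of these held TTTGAA. Of 32851 RefSeq promoter windows of the same length, 33.9% held CCAAT on either strand, 16.0% held TTTGAA and 5.55% held both. Promoters of 6 of the 10 genes were in the table used. For Ipo5 and Xpo1 the windows lie before starts inside the annotated gene. CCAAT occurred 2 times in the Xpo1 window and 2 times in 1 of the Ipo5 windows, and the windows of Tnpo1 held neither motif. A match of letters says nothing of whether a factor binds there.

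The Ran cycle, which gives transport its direction, was largely higher in M8. Of its 7 listed genes, 6 passed the filter, and of these 5 were higher and 1 was lower (limma adjusted p below 0.1, with 21.2% and 16.5% of all genes tested), with a median log2 fold change of 0.28. Rcc1, the nucleotide exchange factor that loads Ran with GTP on chromatin, was at 27.1, 24.0 and 23 FPKM in parental cells and at 32.8, 35.3 and 32.3 FPKM in M8 (log2 fold change 0.43 ± 0.064 SE, adjusted p = 0.00195 by limma). Ran itself was at 427, 434 and 413 FPKM in parental cells and at 560, 543 and 539 FPKM in M8 (log2 fold change 0.36 ± 0.038 SE, adjusted p = 0.000392 by limma). In both genes the M8 values lay above all parental ones.

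Further along the cycle, Rangap1, which activates GTP hydrolysis by Ran in the cytoplasm, rose from 73.0 ± 3.29 to 88.4 ± 2.17 FPKM (SD, n = 3 each), with a limma adjusted p of 0.00259. Its cofactor Ranbp1 rose from 267 ± 25.4 to 326 ± 14.2 FPKM (limma adjusted p = 0.00979), and Ranbp3, a cofactor of export by Xpo1, from 33.8 ± 1.29 to 39.3 ± 0.933 FPKM (limma adjusted p = 0.00847). Windows shared with other genes made up 10.8% of the Ran transcript and 18.6% of that of Ranbp1. Rangrf was between 0 and 0.383 FPKM and was not tested.

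Nutf2, which encodes NTF2, the carrier that brings Ran back into the nucleus, was the gene of the cycle called lower. It was at 12.5, 13.0 and 15.7 FPKM in parental cells and at 11.5, 11.7 and 11.5 FPKM in M8 (log2 fold change -0.22 ± 0.077 SE, adjusted p = 0.0585 by limma). The call was lost without parental replicate 3 (log2 fold change -0.13, limma adjusted p = 0.115), without M8 replicate 1, 2 or 3 in turn (limma adjusted p = 0.141, 0.111 and 0.129) and with no filter on low values (limma adjusted p = 0.135). In the latter 4 fits the log2 fold change of Nutf2 was between -0.23 and -0.21. Of the windows of read length in Nutf2, 90.6% also occur in its copy Nutf2-ps1, which is in the deposited tables at a far higher level. Nutf2-ps1 was at 140, 146 and 155 FPKM in parental cells and at 166, 156 and 166 FPKM in M8, opposite in direction to Nutf2 (log2 fold change 0.15 ± 0.048 SE, adjusted p = 0.0474 by limma). Nutf2-ps1 was looked up after the values of Nutf2 had been seen, and the part of read assignment between the copies was not tested.

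**Figure D3:**
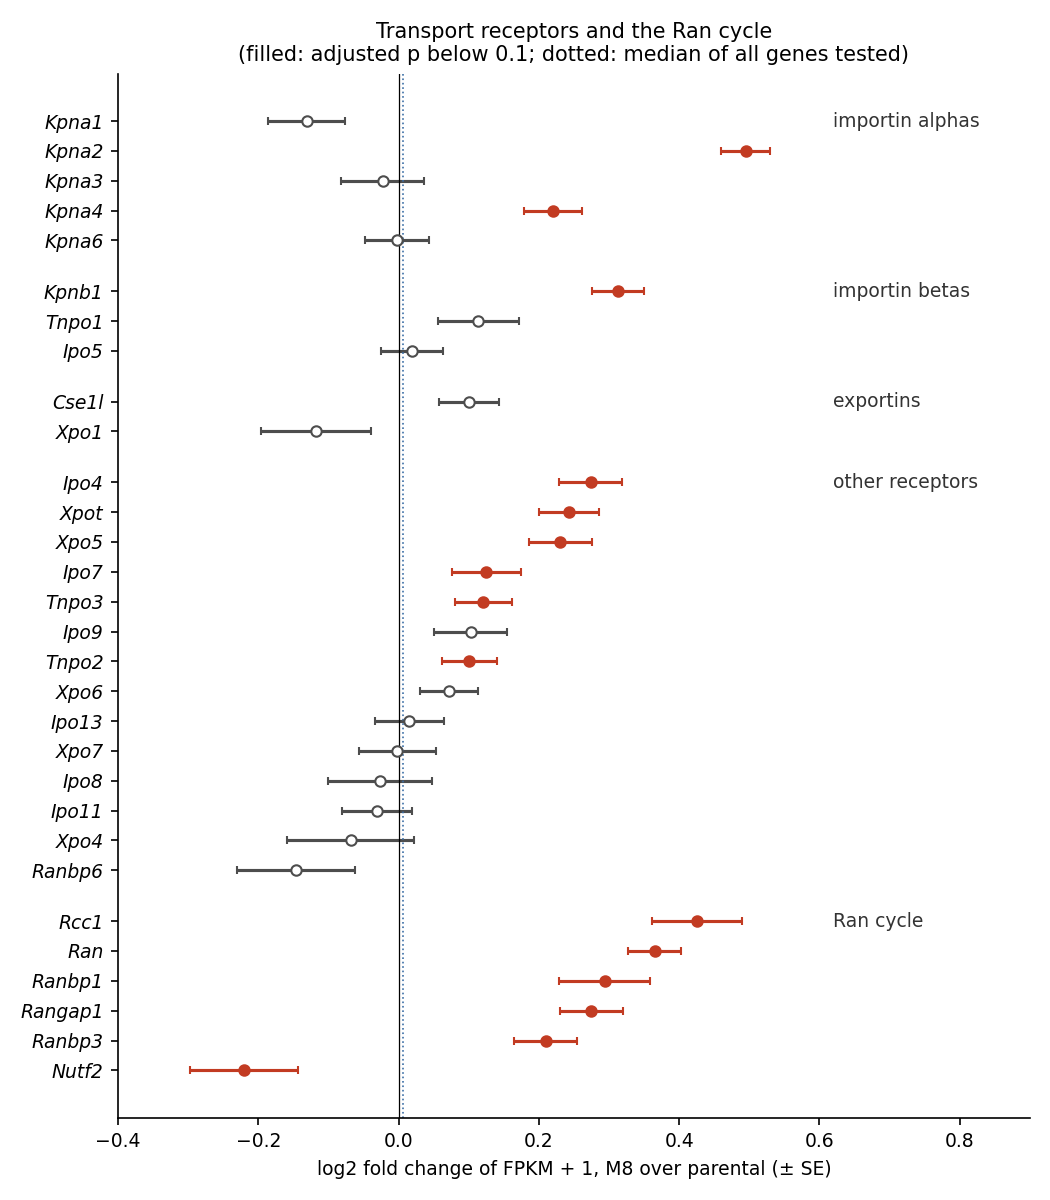
Log2 fold change of FPKM + 1, M8 over parental (x axis, with the standard error as bars), for the 10 genes, 14 other transport receptors and 6 genes of the Ran cycle. Filled red points passed an adjusted p of 0.1 in limma, and the dotted line is the median of all genes tested (0.0069). Kpna2 lies farthest to the right and Nutf2 farthest to the left.

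Other transport receptors were also examined. Of 16 listed genes, 14 passed the filter, 6 were higher, 0 were lower and 8 were not called (against 21.2% higher and 16.5% lower of all genes tested), with a median log2 fold change of 0.087. At an unadjusted p below 0.05 in limma 0 were lower as well. Kpna7 (at most 0.041 FPKM) and Ranbp17 (listed at 0 throughout) were barely or not detected. Ipo4, an importer of histones, rose from 34.7 ± 1.29 to 42.2 ± 1.0 FPKM (SD, n = 3 each), or by 0.27 on the log2 scale (limma adjusted p = 0.00259). Of its windows 59.0% occur in the gene model Gm49378. Xpot, the exporter of tRNA, rose from 48.2 ± 1.22 to 57.2 ± 1.79 FPKM, a log2 fold change of 0.24 (limma adjusted p = 0.00336). Xpo5, the exporter of microRNA precursors, rose from 35.9 ± 0.284 to 42.4 ± 1.88 FPKM, a log2 fold change of 0.23 (limma adjusted p = 0.00560). The calls of Tnpo2, Tnpo3 and Ipo7 had adjusted p-values from 0.0511 to 0.0862 in limma. The count of higher genes was 3 with TPM, upper-quartile or quantile scaling and without parental replicate 3, M8 replicate 1 or M8 replicate 3.

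Nucleoporins, which build the pore, were higher in M8 wherever they passed the test. Of 31 listed genes, all passed the filter, 19 were higher, 0 were lower and 12 were not called (against 21.2% higher and 16.5% lower of all genes tested), and the median log2 fold change was 0.13. At an unadjusted p below 0.05 in limma 0 were lower too. Nup37, of the outer ring of the pore, rose from 32.4 ± 2.35 to 41.9 ± 1.24 FPKM (SD, n = 3 each), or by 0.36 on the log2 scale (limma adjusted p = 0.00225). Nup43, of the same ring and overlapped by Pcmt1 in the annotation, and Ndc1, which anchors the pore in the membrane, both had a log2 fold change of 0.31 (limma adjusted p = 0.00146 and 0.00560). The count of higher nucleoporins depended on scaling, with 11 under TPM or quantile normalization and 10 under upper-quartile scaling, where 1 was lower. It was also 11 without M8 replicate 1 or without M8 replicate 2.

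Spindle factors known to be held by importins were mostly higher. Tpx2, which activates Aurora A on the spindle, was at 61.2, 64.4 and 62.7 FPKM in parental cells and at 83.2, 80.7 and 78.8 FPKM in M8 (log2 fold change 0.36 ± 0.041 SE, adjusted p = 0.000563 by limma). The motor gene Kifc1 rose by 0.38 on the log2 scale (limma adjusted p = 0.000693), and the microtubule-binding Dlgap5 and Nusap1 rose by 0.27 and 0.25 (limma adjusted p = 0.00294 and 0.00486). Numa1, which gathers microtubules at spindle poles, had a log2 fold change of 0.046 (limma adjusted p = 0.50). Of the 5 genes 4 were thus higher and 0 lower (against 21.2% higher and 16.5% lower of all genes tested), and 0 were lower at an unadjusted p below 0.05 in limma. The list was written with earlier results of these data known, so its count is no independent evidence.

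Markers of cycling and mitotic cells differed between the lines in the same direction as Kpna2. All 10 listed markers were higher in M8, with log2 fold changes from 0.18 to 0.73 and a median of 0.48, beside 0.49 for Kpna2 and 21.2% of all genes tested called higher. The count was 9 with TPM, upper-quartile scaling, no filter or an adjusted p below 0.05, and without parental replicate 1 or 3 or M8 replicate 2 or 3. Plk1 (0.73), Cdc20 (0.66) and Aurka (0.66) had the largest values (limma adjusted p = 0.000206, 0.000261 and 6.07e-05). The direction of such genes was known from earlier results of these data when the list was written, so it is no independent evidence. The summed FPKM of the list was 420 to 446 in parental replicates and 599 to 630 in M8, and the part of cell cycle state in the difference of Kpna2 was not tested.

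**Figure D4:**
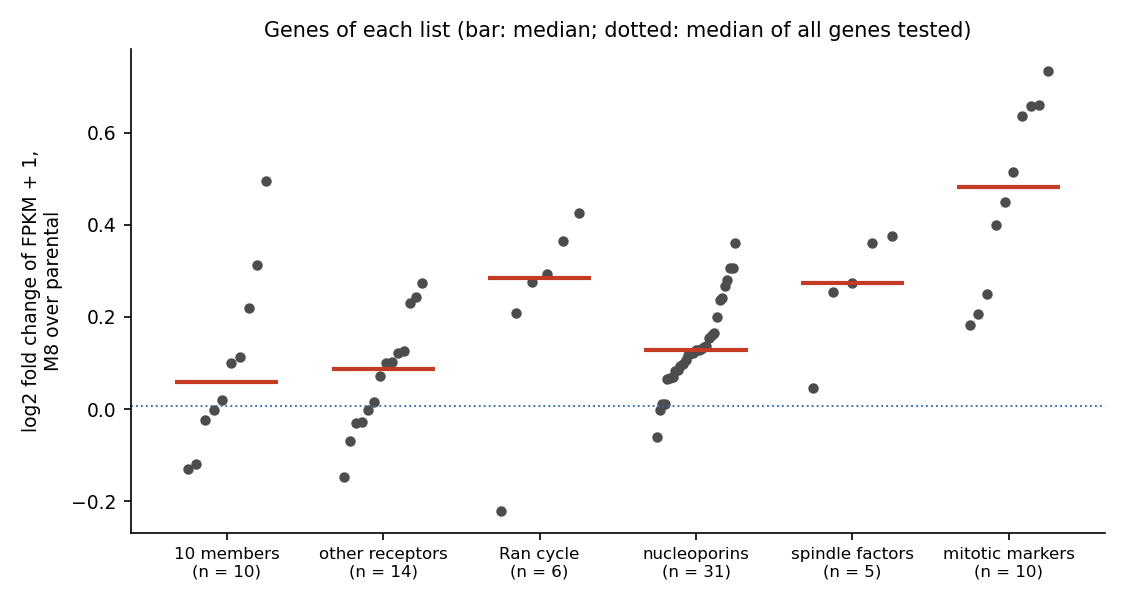
Log2 fold change of FPKM + 1, M8 over parental (y axis), of every tested gene in 6 lists (points, ordered by value within a list), with the median of each list (red bar) and of all genes tested (dotted). Medians run from 0.060 for the 10 transport receptor genes to 0.48 for the mitotic markers.

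The genes whose profile over the 6 samples lay nearest that of Kpna2 were Lsm4, Ddx39, Zfp428 and Fam64a, among the 8537 other genes whose mean reached 5 FPKM, with the 10 genes left out. Likeness was the root mean square difference of log2(FPKM + 1) after each gene's own mean was subtracted, and it was between 0.020 and 0.023 for these 4 genes. Lsm4, of the ring that binds U6 RNA, was at 73.2 ± 0.542 FPKM in parental cells and at 105 ± 2.76 FPKM in M8 (SD, n = 3 each). Ddx39, an RNA helicase linked to mRNA export, was at 112 ± 2.81 and 155 ± 2.99 FPKM (SD, n = 3 each). Within the 10 genes, Kpnb1 (0.092) and Kpna4 (0.14) were nearest to Kpna2, and Xpo1 (0.33) was farthest.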

How the data were processed

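Total RNA of 3 parental and 3 M8 samples was sequenced from stranded mRNA libraries as 101-base single reads. TopHat placed the reads on mm10, and Cufflinks 2.2.1 gave the FPKM that the authors deposited, 1 per gene symbol and sample. The submitters' processing notes list TopHat2 2.1.1, Bowtie2 2.2.8, SAMtools 0.1.18 and Cuffdiff 2.2.1. The annotation, and how reads that fit several places were counted, are not given in the sources used here.

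The 10597 genes whose mean reached 1 FPKM entered a fit of log2(FPKM + 1) on line alone, by lmFit and trended eBayes of limma 3.58.1 (R 4.3.3). P-values were adjusted over all of them by the Benjamini-Hochberg method, with a threshold of 0.1 after the study's FDR. Fold changes on this scale understate those of low genes. The fit was tested on simulated data. Relative depth was the commonest ratio of values between libraries among low genes. The counting error of the reads cannot be read from FPKM without the depth, so no confidence intervals are given.

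The text names the 10 genes, the Ran cycle and spindle lists, up to 3 called genes per direction in the other lists, and the 5 nearest profiles to Kpna2, of which 1 is not reported here. Members and lists were chosen with earlier results of these data known, so their counts are no independent evidence. Nup42 and Nup58 were matched by RefSeq synonyms. Windows of 101 bases were compared exactly with all GENCODE M21 transcripts, and proteins were aligned with BLOSUM62 in Biopython 1.88. Tried as alternatives were a pseudocount of 0.5 or 0.1, no filter or one at 5 FPKM, TPM, upper-quartile and quantile scaling, untrended eBayes, a stricter adjusted p of 0.05, a block on the replicate number, and fits leaving out single replicates.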

Additional observations from a re-analysis of the deposited data

How the results depend on the processing

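Kpna2, Kpna4 and Kpnb1 kept their direction and call under all 16 alternatives, with log2 fold changes of 0.39 to 0.51, 0.15 to 0.24 and 0.22 to 0.33. The lines did not overlap in these genes, so a pseudocount or leaving out single replicates could not change their direction. No filter, the filter at 5 FPKM, untrended eBayes, the stricter threshold and the block left their log2 fold changes unchanged. Only the scalings could have changed their direction, and the genes were chosen on this contrast. Tissue markers, Tnpo2, Tnpo3, Ipo7, Nutf2-ps1, Kifc5b and the nearest profiles to Kpna2 were not followed through the alternatives. Of the 30 named genes that were, 21 kept direction and call under each alternative tried. Kpna3, Kpna6, Ipo5 and Numa1 were never called and changed sign in some, and 0 called genes changed sign. Kpna1 was called lower with a mean FPKM of at least 5, with TPM, with upper-quartile scaling and without M8 replicate 3, so 1 of the 10 genes was then lower, as was Xpo1 without parental replicate 3. Tnpo1 was called higher without parental replicate 1 and Cse1l with no filter. Leaving out single replicates gave 0 to 1 lower members, 0 to 1 lower Ran cycle genes, 3 to 5 higher other receptors and 11 to 19 higher nucleoporins. It gave 1157 to 1672 lower genes over all genes tested. No Ran cycle gene was lower (0) with no filter or at an adjusted p below 0.05. Higher other receptors numbered 3 with TPM, upper-quartile scaling, quantile normalization and an adjusted p below 0.05. Higher nucleoporins numbered 11, 10, 11 and 12 under the same settings, and 1 nucleoporin was lower with upper-quartile scaling. That scaling gave 1470 higher and 2769 lower genes over all genes tested, with the median gene at -0.049. TPM gave 1658 and 2209. The median of the importin alphas minus that of the other 5 genes was -0.10, with -0.053 under quantile normalization and -0.11 to -0.071 with single replicates left out. The difference in the share of Kpna2 was 7.0 percentage points, 6.66 to 7.41 with single replicates left out, and 5.87 under quantile normalization, an alternative chosen for the share after seeing the data. Scaling by a common factor per sample cannot change it. The cause of these shifts was not tested beyond the settings themselves. The labels do not say whether same-numbered replicates of the lines were handled together, and the correlations of their deviations were 0.10, -0.11 and -0.033. The replicate block gave 2171 higher and 1688 lower genes, against 2250 and 1745 without it, and the same 3 higher and 0 lower members. The depth behind each FPKM is not given, so what counting error adds is unknown.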

Other observations

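Kifc1 has a near copy, Kifc5b, in the deposited tables, with which it shares 23.4% of its windows of read length. Kifc5b was at 12.7 ± 0.218 FPKM in parental cells and at 16.1 ± 0.408 FPKM in M8 (SD, n = 3 each), or 0.32 ± 0.047 (SE) on the log2 scale with an adjusted p of 0.00192 by limma, in the same direction as Kifc1. It was chosen after its values were seen.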
